A study of Mus musculus with 18 samples.

Results

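Cholesterol synthesis in mouse embryonic stem cells (mESCs) was followed through 8 genes, Srebf2, Hmgcs1, Idi1, Fdft1, Sqle, Lss, Cyp51 and Insig1, on hydrogels of different stiffness and adhesiveness. The genes were chosen by name, as sterol pathway enzymes and genes of the SREBP feedback loop, and with earlier results of these data known, although the rule itself uses no measured value. They are 8 of the 46078 genes in the count table, and all 8 were among the 13438 protein-coding genes with enough counts to be tested. The cells were E14 mESCs, an established wild-type line labelled 129m, held for 24 h in serum and LIF on fibronectin-coated StemBond hydrogels. StemBond hydrogels are polyacrylamide gels made with the co-factor AHA, which binds proteins of the extracellular matrix (ECM). By the paper's estimate more AHA gives more anchor points, and the paper proposes that it gives a stronger tether. The forces it measured levelled off on high AHA gels, which it reads as possible saturation. Soft gels had a stiffness near 750 Pa and stiff gels one near 160 kPa. Each kind was made with AHA at 16 mM (low), 48 mM (mid) or 80 mM (high). Every group thus shared the line, the medium, the fibronectin coat and the time, and the labels listed 3 libraries for each of the 6 groups. Replicate numbers are not from the labels and only name the libraries of a group in sample order.

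Cells make cholesterol from acetyl-CoA through the mevalonate pathway. SREBP2, the protein product of Srebf2, is a transcription factor that is held in the endoplasmic reticulum membrane by SCAP and INSIG proteins while sterols are plentiful. When membrane sterol falls, SREBP2 travels to the Golgi, is cut by proteases, enters the nucleus and switches on the enzymes of the pathway, its own gene and Insig1. INSIG1 in turn retains SCAP and closes the feedback loop. The levels of these messenger RNAs are therefore widely used as a readout of how much sterol a cell senses.

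The mature SREBP2 fragment binds sterol response elements (SREs) near gene starts, next to boxes for the factors NF-Y and Sp1. The RefSeq table of promoter windows, on build GRCm38.p6, held 6 of the 8 genes, and Sqle and Fdft1 had no entry. Each window covers 250 bases before the start and 50 bases after it. The letters TCACNCCA, a classical SRE core, were found on either strand in 2 of the 6 windows (Srebf2 and Hmgcs1) and in 4.36% of all 32851 windows. With 1 more base, TCACNCCAC, they were found for Hmgcs1 alone of the 6 and in 1.24% of all windows, and every such match also holds the shorter core. CCAAT, the NF-Y box, was in all 6 windows against 37.4% of all windows, and GGGCGG, the Sp1 box, was in all 6 against 35.7%. A match describes letters in a window and is not evidence of binding. The stretches of 90 bases below were chosen because they hold these letters before every annotated start of the gene. They are written 5′ to 3′ on the plus strand, which is the coding strand of all 4 genes, and capitals mark the SRE core and CCAAT or its reverse complement ATTGG.
Srebf2, chr15:82147065-82147154: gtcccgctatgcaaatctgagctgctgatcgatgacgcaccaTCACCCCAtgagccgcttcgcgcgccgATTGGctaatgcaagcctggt
Hmgcs1, chr13:119690172-119690261: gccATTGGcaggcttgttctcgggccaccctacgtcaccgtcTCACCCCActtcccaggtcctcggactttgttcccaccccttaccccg
Lss, chr10:76531498-76531587: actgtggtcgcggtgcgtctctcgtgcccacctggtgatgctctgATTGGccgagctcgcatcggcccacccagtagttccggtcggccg
Insig1, chr5:28071162-28071251: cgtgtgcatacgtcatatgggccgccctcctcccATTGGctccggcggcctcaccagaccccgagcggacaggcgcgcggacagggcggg
Srebf2 and Hmgcs1 carried the same SRE core letters, 162 and 137 bases before the start used by their RefSeq windows. That start differs from the gene start given with the levels below. The stretches of Lss and Insig1 held the NF-Y box and no SRE core.

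Libraries held 5850621 to 9290261 gene counts. ERCC spike-in RNAs made up 0.607 to 0.725% of counts in 17 libraries and 1.37% in soft, high AHA replicate 1. This library was left out of the tests, which left 8 soft and 9 stiff libraries and 2 libraries in the soft, high AHA group. Nothing in the labels says that the 3 libraries of a group came from separate cultures, so p-values measure the spread between these libraries, which may be technical. The 6 embryonic stem cell markers, Pou5f1, Sox2, Nanog, Esrrb, Zfp42 and Utf1, summed to 1695 to 1878 CPM on soft and 1566 to 1676 CPM on stiff gels. Markers of other cells were present. The 5 fibroblast markers summed to 114 to 197 CPM on soft and 166 to 237 CPM on stiff gels, mostly Col1a1, the 5 trophoblast markers to 77.7 to 105 and 101 to 123 CPM with the defining gene Elf5 at a mean of 0.386 CPM, and the 6 primitive endoderm markers to 35.6 to 50.6 and 36.6 to 47.3 CPM. In the average of soft minus stiff used below, Col1a1 (log2 difference -0.49, adjusted p = 0.00282) was the 1 fibroblast marker called, and Hand1 (-0.30, adjusted p = 0.000841) and Krt7 (-0.25, adjusted p = 0.00750) were called of 4 trophoblast markers tested. Of the stem cell markers, Sox2, Nanog, Esrrb and Zfp42 rose on soft gels and Utf1 fell (-0.14, adjusted p = 0.000599), and no primitive endoderm marker was called. The part of these cells in the results that follow was not tested, and in bulk libraries fewer cells of a type and less RNA per cell cannot be told apart.

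Levels are given as CPM, a gene's counts as a share of the counts of tested protein-coding genes, brought to one common total with TMM factors. All 8 genes were expressed in every library. Srebf2 (chr15:82147181-82205379, build GRCm38, plus strand) averaged 207 CPM over the 17 libraries. Hmgcs1 (chr13:119690379-119708260, plus), which encodes the HMG-CoA synthase, an early enzyme of the pathway, averaged 145 CPM. Idi1 (chr13:8885501-8892451, plus), the isomerase that makes the isoprenoid building block DMAPP from IPP, was the lowest at 16.5 CPM. The enzymes that commit farnesyl units to sterols were intermediate. Fdft1 (chr14:63145150-63179578, minus), or squalene synthase, averaged 73.0 CPM, and Sqle (chr15:59315077-59331192, plus), the squalene epoxidase that starts the steps from squalene to lanosterol, averaged 76.3 CPM. The cyclase Lss (chr10:76531588-76557138, plus) makes lanosterol and averaged 46.4 CPM, the lanosterol demethylase Cyp51 (chr5:4081145-4104746, minus) averaged 42.7 CPM, and Insig1 (chr5:28071363-28078662, plus) averaged 28.5 CPM.

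Per kilobase of annotated exon, which allows levels to be compared between genes, the order was different. Hmgcs1 was highest at 31.5 CPM per kb, then Srebf2 at 28.9, Fdft1 at 17.3, Sqle at 13.8, Cyp51 at 9.67, Insig1 at 9.20, Idi1 at 4.70 and Lss at 4.30 CPM per kb. The exonic length is that of all annotated transcripts joined, from 3093 bp for Insig1 to 10787 bp for Lss. The value of Lss would be lowered by any exons that its main transcript lacks, which was not tested. Exons of another gene on the opposite strand covered 18.3% of the exonic length of Fdft1 (Ctsb), 12.1% of Hmgcs1 (Gm48342), 9.22% of Idi1 (Gm48574), 3.76% of Cyp51 (Akap9) and 3.53% of Lss (4930483K19Rik). Whether counting used strand was not given in the sources used here, so these 5 genes are uncertain to that extent. The neighbouring paralogue of Idi1, Idi2, had 14 counts in all 18 libraries together.

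**Figure D1:**
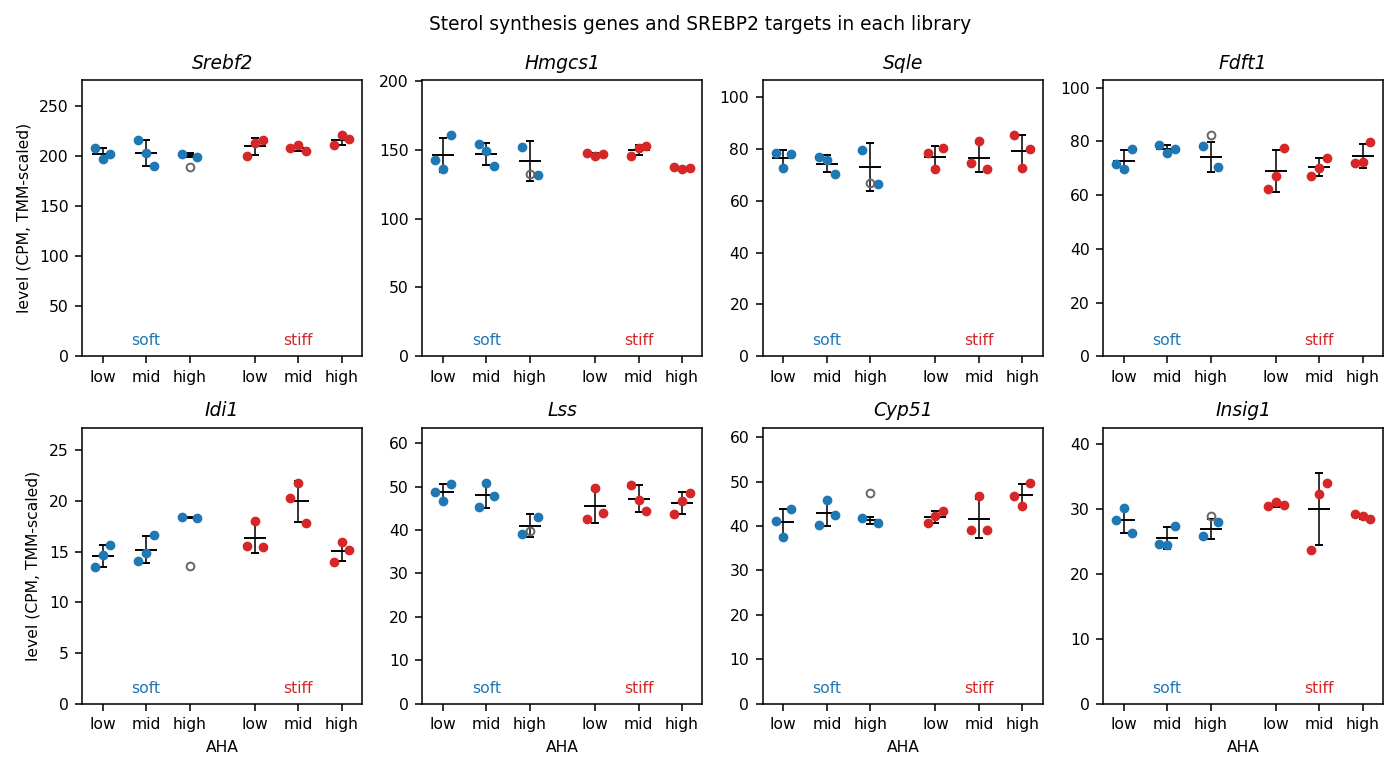
Level of each gene (y axis, CPM from 0) in every library, by AHA concentration (x axis) on soft (blue) and stiff (red) gels, with black bars for the mean and SD of each group and open grey circles for the library left out. Pooled over AHA, the blue and red points overlap in all 8 panels. At a single AHA concentration they do not for Idi1 (mid and high), Insig1 (low and high), Fdft1 (mid), and Srebf2, Cyp51 and Lss (high). The share of all genes that separate at a single AHA concentration was not counted. The group means of a gene lie within 1.37 times of each other.

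Stiffness was asked first. None of the 8 genes differed between soft and stiff gels at an adjusted p under 0.05, at any AHA concentration or on average over the 3 concentrations. In the average, 1154 of the 13438 genes tested (8.59%) were called, and 0 of the 8 (0 also by DESeq2, which called 957 of all genes). At an unadjusted p under 0.05 the average held 1 of the 8 (Srebf2) with edgeR and 0 with DESeq2, against 20.5% of all genes with edgeR and 17.9% with DESeq2. The soft and stiff libraries did not overlap for 1.27% of all genes, and they overlapped for each of the 8.

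Srebf2 was the gene with the lowest adjusted p in the average. On soft gels its level in the 8 libraries was 190 CPM at the lowest, 202 CPM at the median and 216 CPM at the highest. On stiff gels the 9 libraries ran from 200 through a median of 212 to 221 CPM. The upper part of the soft range thus lay inside the stiff range, although the 3 stiff groups had the highest 3 means. The largest group mean was 217 ± 4.84 CPM (SD, n = 3) on stiff, high AHA gels and the smallest 201 ± 2.00 CPM (SD, n = 2) on soft, high AHA gels. The average difference, soft minus stiff, was -0.06 ± 0.03 on the log2 scale (SE), or 0.956-fold, with adjusted p = 0.231 from edgeR's quasi-likelihood test. Its 95% interval, not adjusted for the number of genes, ran from 0.915- to 0.999-fold.

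Insig1, the feedback gene, had the largest average difference of the 8. Its level was 28.3, 30.2 and 26.3 CPM in the soft, low AHA libraries, 24.7, 24.5 and 27.4 CPM at mid AHA, and 25.9 and 28.0 CPM at high AHA. On stiff gels it was 30.4, 31.1 and 30.6 CPM at low AHA, 23.6, 32.3 and 34.0 CPM at mid AHA, and 29.2, 28.9 and 28.5 CPM at high AHA. A total of 8 stiff libraries lay between 28.5 and 34.0 CPM, while replicate 1 of the stiff, mid AHA group had the lowest level of all 17. The average difference was -0.15 ± 0.08 on the log2 scale (0.899-fold, 95% interval 0.808 to 1.00), with adjusted p = 0.251. The difference did not pass the test.

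The enzymes gave differences of both signs, each smaller in size than that of Insig1. For Idi1, whose groups are described below, the average was -0.08 ± 0.10 on the log2 scale (adjusted p = 0.712 from edgeR). Hmgcs1, early in the pathway, ranged from 132 through a median of 146 to 160 CPM on soft gels and from 136 through 145 to 152 CPM on stiff gels. Its average difference was 0.01 ± 0.04 on the log2 scale, and the 95% interval of 0.956- to 1.06-fold was the narrowest after that of Srebf2. The soft libraries were spread more widely than the stiff ones, on both sides of them.

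Fdft1 had the highest soft minus stiff difference of the 8, with 74.8 ± 3.71 CPM (SD, n = 8) on soft against 71.4 ± 5.40 CPM (SD, n = 9) on stiff gels. The log2 difference was 0.07 ± 0.05 (adjusted p = 0.485), and the highest single library, at 79.7 CPM, was a stiff one. For Ctsb, whose exons overlap those of Fdft1 on the other strand, the log2 difference was 0.06 ± 0.05 (adjusted p = 0.556).

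Sqle ranged from 66.4 to 79.5 CPM on soft and from 72.1 to 85.2 CPM on stiff gels, with a log2 difference of -0.06 ± 0.05 (adjusted p = 0.534). It was -0.11 without soft high replicate 2 and -0.02 without soft high replicate 3. Lss was 46.5 CPM on soft gels (SD 3.99, n = 8) and 46.3 CPM on stiff gels (SD 2.87, n = 9), and its log2 difference was -0.01 ± 0.06 (adjusted p = 0.936). Cyp51 ranged from 37.5 to 45.8 CPM on soft and from 39.1 to 49.7 CPM on stiff gels, with a log2 difference of -0.07 ± 0.06 (adjusted p = 0.628). In each of these 3 enzymes, which act from squalene onwards, the difference was within the spread between libraries. The intervals were 0.895- to 1.02-fold for Sqle, 0.910- to 1.08-fold for Lss and 0.875- to 1.04-fold for Cyp51.

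The average weights the 3 AHA concentrations equally, and by this measure 6 of the 8 genes were lower and 2 (Hmgcs1 and Fdft1) higher on soft gels. For Lss the mean over libraries has the opposite sign, and the sign of the average turned under 4 of 26 alternatives for Hmgcs1 and under 4 of 26 for Lss. The median log2 difference was -0.06, beside 0.001 over all genes tested. The median size of the log2 difference without its sign was 0.07 for the 8 genes and 0.07 for the 6929 other tested genes whose mean lay within the range of the 8, from 16.5 to 207 CPM, of which 11.2% were called. The 95% intervals of the 8 averages had half-widths of 0.06 to 0.20 on the log2 scale, and no interval reached below -0.31 or above 0.17.

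**Figure D2:**
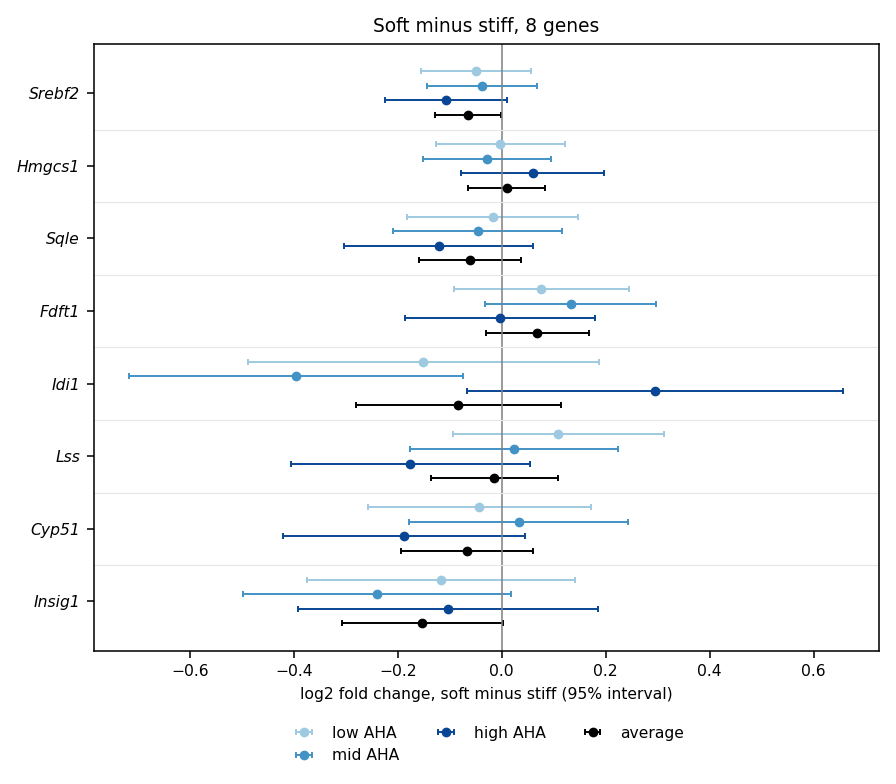
Log2 fold change of each gene, soft minus stiff (x axis), at low, mid and high AHA (light to dark blue) and on average (black), with 95% intervals that are not adjusted for the number of genes. The average points lie between -0.15 (Insig1) and 0.07 (Fdft1), and Idi1 has the widest spread between AHA concentrations.

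At single AHA concentrations, 3.04% of all genes were called between soft and stiff gels at low, 2.86% at mid and 0.841% at high AHA, and 0 of the 8 in each. These counts of all genes moved with single libraries. The 408 genes at low AHA became 245 without soft low replicate 1, and the 384 at mid AHA became 222 without soft mid replicate 2 and 254 without stiff mid replicate 1. The 113 at high AHA became 42 without soft high replicate 3, 51 without stiff high replicate 3 and 341 with all 18 libraries. Without adjustment, p was under 0.05 for 0, 1 and 0 of the 8 at low, mid and high AHA, with edgeR as with DESeq2. Over all genes these shares were 13.1%, 13.6% and 10.5% with edgeR and 11.0%, 11.2% and 8.28% with DESeq2. DESeq2 gave no adjusted p for 4 of the 8 at high AHA. The exception at mid AHA was Idi1.

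Idi1 differed most between groups. Its level was 13.4, 14.7 and 15.6 CPM on soft gels with low AHA, 14.1, 14.8 and 16.7 CPM with mid AHA and 18.4 and 18.3 CPM with high AHA. On stiff gels it was 15.5, 18.0 and 15.5 CPM with low AHA, 20.3, 21.8 and 17.8 CPM with mid AHA and 14.0, 15.9 and 15.2 CPM with high AHA. The 3 stiff libraries thus lay above the 3 soft ones at mid AHA, and below the 2 soft ones at high AHA. The share of all genes that separate in this way was not counted. The log2 difference, soft minus stiff, was -0.15 ± 0.17 at low AHA (adjusted p = 0.795), -0.40 ± 0.16 at mid AHA (adjusted p = 0.215) and 0.30 ± 0.18 at high AHA (adjusted p = 0.612). The interaction, which asks whether the 3 differences were equal, had adjusted p = 0.698 and was called for 0.0298% of all genes and 0 of the 8. The 4 genes called became 12 without stiff low replicate 2 and 10 without soft low replicate 2. Idi1 rested on 66 to 126 counts per library, the fewest of the 8, and counting alone gives a coefficient of variation (CV) of 10.6%. The library left out stood at 13.6 CPM, below both soft, high AHA libraries that were used, and with all 18 libraries the difference at high AHA was 0.16 ± 0.17 on the log2 scale.

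ECM tethering was asked within each stiffness. On soft gels 0.253% of all genes were called between high and low AHA, 0.067% between high and mid, and 0% between mid and low. On stiff gels the shares were 0.00744%, 0.00744% and 0%. These counts rest on single libraries. The 34 genes called between high and low AHA on soft gels became 2 without soft high replicate 2, 8 without soft low replicate 1 and 69 without soft high replicate 3, and the 9 between high and mid became 4 without soft high replicate 2. The 0 between mid and low on soft gels became 7 without soft mid replicate 3, and the 1 between high and low on stiff gels became 15 without stiff high replicate 1. None of the 8 genes was called in any of these 6 comparisons with edgeR or DESeq2, although DESeq2 gave no adjusted p for 4 of the 8 between high and low and for 6 between high and mid AHA on soft gels. At an unadjusted p under 0.05 with edgeR, high against low AHA on soft gels held Lss, high against mid on soft gels held Lss, and high against mid on stiff gels held Idi1 and Hmgcs1. With DESeq2 the same threshold held Lss for high against low AHA on soft gels and Idi1 for high against mid on stiff gels. Over all genes the shares at that threshold, for both soft comparisons with Lss and then the stiff one with Idi1, were 8.51%, 6.81% and 5.83% with edgeR and 6.53%, 5.05% and 4.07% with DESeq2. The 2 remaining comparisons with 0% called, mid against low AHA, had 820 genes on soft and 671 on stiff gels at an unadjusted p under 0.05 with edgeR. DESeq2 called 0 genes in both, with 605 and 501 at that threshold. Over all 11 comparisons, which share libraries, 7 of the 88 tests of the 8 genes (7.95%) had an unadjusted p under 0.05 with edgeR, beside 9.33% of the tests of all genes.

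Lss on soft gels was 48.7, 46.6 and 50.6 CPM at low AHA, 45.2, 50.8 and 47.9 CPM at mid AHA, and 39.1 and 42.9 CPM at high AHA. Both high AHA libraries lay below the other 6 soft libraries, and the library left out, at 39.7 CPM, lay between them. High minus low AHA was -0.25 ± 0.12 on the log2 scale, with adjusted p = 0.517. On stiff gels the 3 high AHA libraries held 43.6 to 48.6 CPM and the 3 low AHA libraries 42.6 to 49.8 CPM, and this difference was 0.03 ± 0.10.

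Hmgcs1 on stiff gels was 148, 145 and 147 CPM at low AHA, 145, 151 and 152 CPM at mid AHA, and 138, 136 and 136 CPM at high AHA. The 3 high AHA libraries lay below the other 6 stiff libraries. High minus mid AHA was -0.13 ± 0.06 on the log2 scale, with adjusted p = 0.843. For Idi1 the same comparison gave -0.42 ± 0.17, with adjusted p = 0.758. Srebf2 itself differed by at most 0.05 on the log2 scale in these 6 comparisons.

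**Figure D3:**
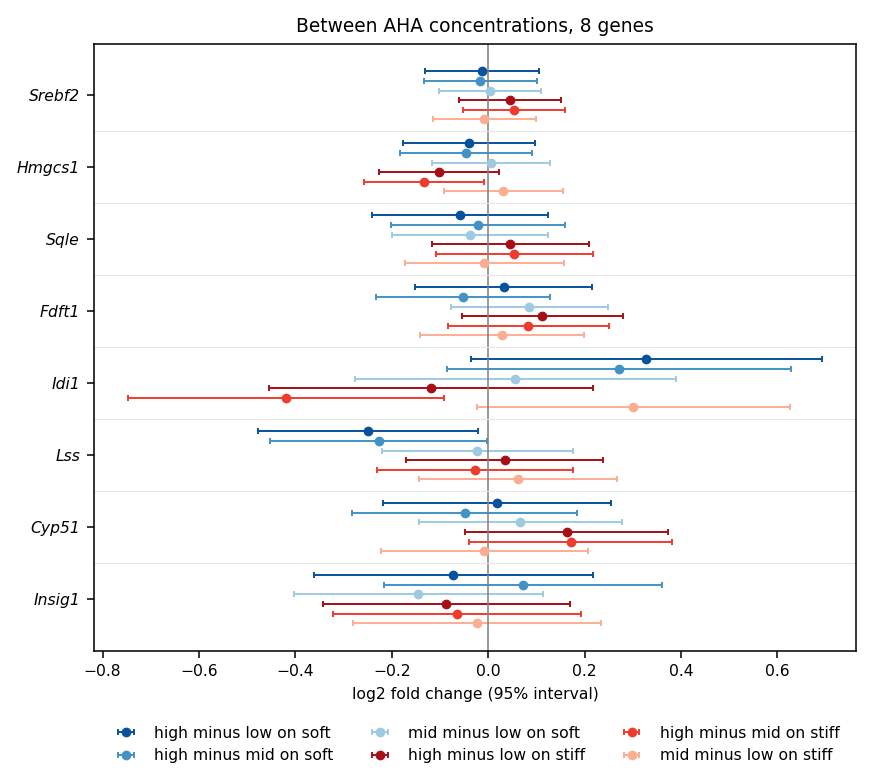
Log2 fold change of each gene between AHA concentrations (x axis) on soft (blue shades) and stiff (red shades) gels, with 95% intervals that are not adjusted for the number of genes. Intervals of Lss on soft gels for high minus low and high minus mid AHA, and of Idi1 and Hmgcs1 for high minus mid AHA on stiff gels, exclude 0 before adjustment, and no adjusted p is under 0.05.

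The order of the 6 groups was described for each gene. The highest group mean exceeded the lowest by 1.08 times for Srebf2, 1.09 for Sqle, 1.10 for Hmgcs1, 1.12 for Fdft1, 1.15 for Cyp51, 1.19 for Lss, 1.20 for Insig1 and 1.37 for Idi1. Of the 40 pairs of neighbours in these orders, 4 differed by more than their pooled SD, and they are given here as mean ± SD. They were stiff mid (19.9 ± 1.99 CPM, n = 3) over soft high AHA (18.3 ± 0.03 CPM, n = 2), and soft high over stiff low AHA (16.3 ± 1.44 CPM, n = 3), for Idi1. The others were stiff high (47.0 ± 2.57 CPM, n = 3) over soft mid AHA (42.8 ± 2.84 CPM, n = 3) for Cyp51, and stiff low (45.4 ± 3.84 CPM, n = 3) over soft high AHA (41.0 ± 2.69 CPM, n = 2) for Lss. The other 36 pairs of neighbours did not differ beyond their spread. No 2 genes shared one order. Stiff, high AHA gels had the highest mean of Srebf2, Sqle and Cyp51 and the lowest mean of Hmgcs1.

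Within groups the levels were tight. The CV between libraries of a group was 3.63% for Srebf2, the smallest, and 9.47% for Insig1, the largest, while counting error alone at the mean counts would give from 2.98% for Srebf2 to 10.6% for Idi1. For Idi1 (8.00%), Lss (6.24% against 6.31%) and Cyp51 (6.70% against 6.56%) the spread between libraries was near or below the counting error.

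Members of one pathway under one factor can rise and fall together, so the levels were compared across the 17 libraries. This is a description across libraries that share depth and scaling, with no test. The 28 pairs of genes had a median Pearson's r of 0.04, from -0.30 to 0.53, and 17 of the 28 were above 0. The highest 3 pairs joined Sqle with Cyp51 (0.53), Srebf2 with Cyp51 (0.42) and Srebf2 with Sqle (0.41). Set against the mean of the other 7 genes, r was 0.49 for Cyp51, 0.40 for Sqle and 0.39 for Srebf2. It was 0.19 for Hmgcs1, 0.08 for Fdft1, -0.03 for Lss, -0.11 for Insig1 and -0.12 for Idi1. Spearman's rho was 0.36, 0.35 and 0.42 for the first 3. Each r was also taken without the 2 libraries farthest from the median of that mean, which were picked for each gene separately. It was then 0.40 for Cyp51, 0.32 for Hmgcs1, 0.31 for Srebf2, 0.23 for Sqle, 0.17 for Fdft1, -0.06 for Lss, -0.07 for Insig1 and -0.11 for Idi1. The order of Sqle, Srebf2 and Hmgcs1 thus changed. Idi1, Lss and Insig1 thus had no positive r with the mean of the other genes.

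The genes whose pattern was most like the mean of the 8 were taken by rank from all 13430 other tested genes. Over 17 libraries, a high r is then partly a result of the picking, and it was not tested. Of the 10 with the highest r, 9 are given. They were Ero1l (r = 0.81 over 17 libraries, 0.62 without the 2 farthest), an oxidase of the endoplasmic reticulum, H2-M3 (0.81 and 0.71), Psma1 (0.77 and 0.77), a proteasome subunit, 1110038F14Rik (0.76 and 0.77), Mrpl34 (0.76 and 0.59), Nhp2 (0.76 and 0.69), Med8 (0.76 and 0.53), Nsun2 (0.74 and 0.63) and Tomm70a (0.73 and 0.68). None of them is an enzyme of sterol synthesis. Of the 48 listed sterol and lipid genes of the wider pathway, the highest were Fads1 (r = 0.66, place 46 of 13430), Npc1 (0.57, place 152) and Nus1 (0.52, place 317).

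The wider pathway was described with 48 genes in 6 lists, all of them tested. In the average of soft minus stiff, 6 of the 48 (12.5%) were called, 2 higher and 4 lower on soft gels, beside 3.77% of all genes called higher and 4.82% called lower. The lists were chosen with earlier results of these data known, so these counts are descriptions, and they cover the genes reported here, not every gene first listed.

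The other sterol synthesis enzymes, 13 genes, held 1 that fell on soft gels and 12 that were not called, with a median log2 difference of -0.06. Msmo1, a methyl oxidase that acts after Cyp51, was 52.9 CPM on soft gels (SD 6.00, n = 8) and 62.9 CPM on stiff gels (SD 5.19, n = 9). Its average log2 difference was -0.24 ± 0.06 (adjusted p = 0.00102), and it was also called at low AHA, at -0.44 ± 0.09 (adjusted p = 0.000815). At mid and high AHA it was not called, at -0.13 ± 0.09 (adjusted p = 0.610) and -0.15 ± 0.10 (adjusted p = 0.654).

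Among 4 genes of sterol uptake and transport none was called. Stard4, a sterol carrier (-0.10 ± 0.07 on the log2 scale, adjusted p = 0.440), and Tmem97, the sigma-2 receptor (-0.05 ± 0.09, adjusted p = 0.849), had the lowest adjusted p.

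The list of liver X receptor (LXR) and sterol efflux genes held 7. It is not a list of LXR targets alone, as it includes genes of the receptors themselves and Soat1. Of the 7, 2 rose on soft gels, 1 fell and 4 were not called. Abcg1, a sterol exporter and LXR target, was 11.5 CPM on soft gels (SD 1.09, n = 8) and 7.54 CPM on stiff gels (SD 1.80, n = 9), with a log2 difference of 0.62 ± 0.14 (adjusted p = 0.000392). It was not called at low (adjusted p = 0.0844), mid (adjusted p = 0.0769) or high AHA (adjusted p = 0.490) alone. Apoe, the apolipoprotein that carries lipid out of cells, was 523 CPM on soft gels (SD 35.2, n = 8) and 462 CPM on stiff gels (SD 19.1, n = 9). Its log2 difference was 0.18 ± 0.03 on average (adjusted p = 3.25e-09), 0.30 ± 0.04 at mid (adjusted p = 4.35e-08) and 0.19 ± 0.05 at high AHA (adjusted p = 0.0159). At low AHA it was 0.07 ± 0.04 and not called (adjusted p = 0.554). The call at high AHA was lost without replicate 3 of the soft (adjusted p = 0.374) or replicate 2 of the stiff group (adjusted p = 0.108). Soat1, which esterifies cholesterol for storage, fell on soft gels by 0.16 ± 0.04 on the log2 scale (adjusted p = 0.00799) and was not called at any single AHA concentration (adjusted p from 0.0539 to 0.699).

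Of 10 genes of fatty acid synthesis, which SREBP factors also control, 2 fell on soft gels and 8 were not called. Scd2, a stearoyl-CoA desaturase, was 203 CPM on soft gels (SD 13.4, n = 8) and 233 CPM on stiff gels (SD 15.8, n = 9). Its log2 difference was -0.19 ± 0.03 on average (adjusted p = 2.12e-06), -0.25 ± 0.05 at low (adjusted p = 0.00121) and -0.22 ± 0.05 at mid AHA (adjusted p = 0.00410), the last lost without replicate 3 of the stiff group (adjusted p = 0.0510). At high AHA it was -0.10 ± 0.06 and not called (adjusted p = 0.593). Fasn, the fatty acid synthase, differed by -0.08 ± 0.02 on average (adjusted p = 0.00551). It was also called at mid AHA, at -0.12 ± 0.04 (adjusted p = 0.0442), but 17 of 27 alternatives put the adjusted p of this last value above the threshold, and it was not called at low (adjusted p = 0.817) or high AHA (adjusted p = 0.333).

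In the remaining lists nothing was called. SREBP processing held 5 genes, of which the protease Mbtps1 (0.06 ± 0.03, adjusted p = 0.207) and Srebf1 (-0.08 ± 0.04, adjusted p = 0.325), which encodes the SREBP1 factors, had the lowest adjusted p. The non-sterol isoprenoid branch held 9 genes, of which Nus1, a subunit of the dolichol-making enzyme (-0.11 ± 0.04, adjusted p = 0.0916), and Fnta, a subunit of farnesyltransferase (0.10 ± 0.04, adjusted p = 0.130), had the lowest. None of the 48 genes was called between AHA concentrations or in the interaction.

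**Figure D4:**
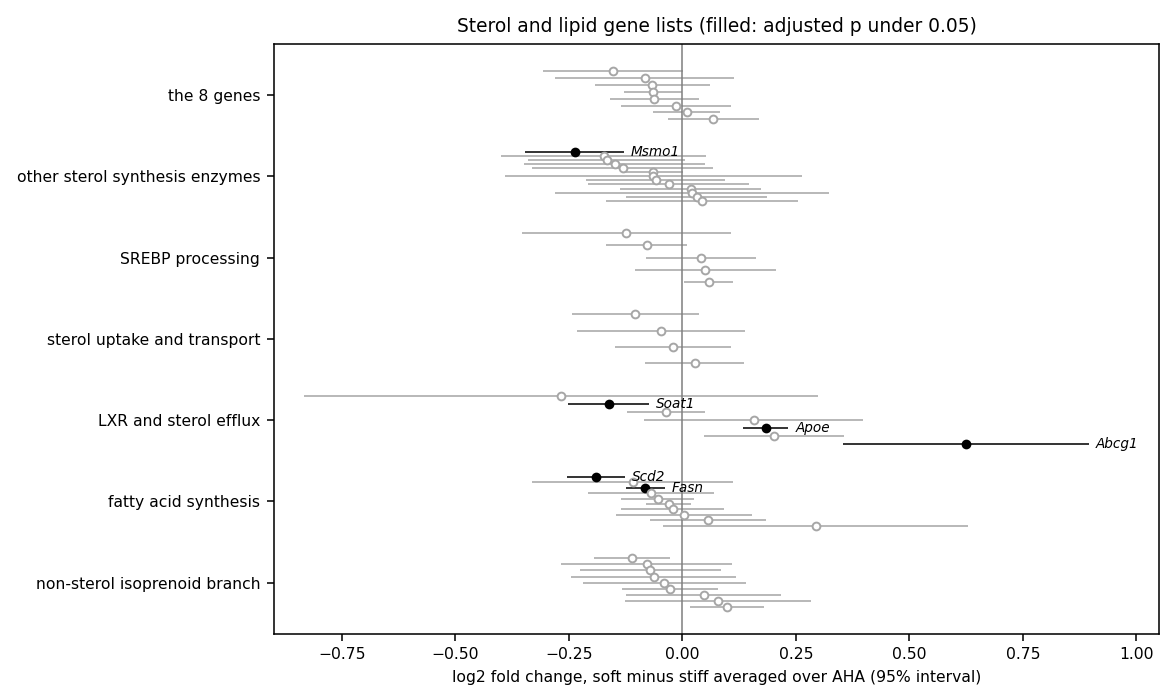
Average log2 fold change, soft minus stiff (x axis), of the 8 genes and of 48 genes in 6 lists of the wider pathway (rows), with 95% intervals not adjusted for the number of genes, filled black where the adjusted p was under 0.05. The 6 filled points lie in 3 of the lists, and none of them is among the 8 genes of the top row.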

How the data were processed

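Libraries were made from total RNA with a pico-input mammalian kit. Per the labels and the study's methods, the authors aligned reads to GRCm38/mm10 with GSNAP, and HTSeq then counted them for each Ensembl gene. What was deposited is the raw count of each gene, not normalised. Summary lines of the counter (61.5 to 64.0% of a column) and spike-in RNAs stayed out of library sizes and tests. Symbols came from GENCODE M21.

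The fit used edgeR 4.0.16 in R 4.3.3, on protein-coding genes kept by filterByExpr at a minimum count of 10, with TMM scaling and a robust quasi-likelihood model of 1 coefficient per group. The library with an ERCC share over 1.5 times the median was left out, as the study left out outliers of that kind. The tests were 10 contrasts and the interaction, with Benjamini-Hochberg adjustment over all genes of a comparison. Standard errors came from the F statistic and intervals are 95%. The common dispersion was 0.00286, a biological CV of 5.35%. Alternatives were other scalings, DESeq2 1.42.0, other filters and other sets of libraries. Pairs of libraries within a group (18 in all) had a chi-square per degree of freedom of 1.82 to 3.07, above that of counting noise.

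The 8 genes and the lists were chosen with earlier results of these data known. All 8 genes were named, and of each list every gene called in the average (up to 4) or in another comparison, or otherwise the 2 with the lowest adjusted p. Some genes of these lists and of the genes most like the 8 are not reported here, and the list counts leave them out. The genes most like the 8 were the 10 with the highest r to the mean of their standardised log2 CPM (prior count 2). Motifs were searched in RefSeq promoter windows.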

Additional observations from a re-analysis of the deposited data

Results flagged for a closer look

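Idi1 was singled out because its libraries separated in opposite directions at different AHA concentrations. Separation at a single AHA concentration was also seen for Insig1, Fdft1, Srebf2, Cyp51 and Lss. The share of all genes that separate in this way was not counted. Soft minus stiff, the difference in mean level was -4.75 CPM at mid AHA, where each of the 3 soft libraries lay below each of the 3 stiff ones, and 3.32 CPM at high AHA, where both soft libraries lay above the 3 stiff ones. The edgeR interaction over the 3 AHA concentrations had adjusted p = 0.698, and the difference between mid and high AHA alone was not tested. With all 18 libraries the interaction had adjusted p = 0.779 and the left-out soft, high AHA library lay at 13.6 CPM, below the 3 stiff, high AHA libraries. With replicate 2 or replicate 3 of the soft, high AHA group left out in its place, the log2 difference at high AHA was 0.09 ± 0.19 or 0.10 ± 0.19. In 16 sets of libraries (the soft or the stiff libraries, for each of the 8 genes) no library stood apart by Dixon's criterion.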

How the results depend on the processing

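Each comparison was repeated under 27 alternatives, of which 8 changed a setting, 17 left out 1 library and 2, chosen after seeing the data, left out soft, high AHA replicate 2 or 3 in place of replicate 1. The alternative with only the groups compared gave no value for the average and the interaction. None of the 8 genes was called in any comparison under any alternative, and the lowest adjusted p was 0.104 (Srebf2, average, replicate 2 left out in place of replicate 1). Where a soft, high AHA library was left out, the 1 remaining was assumed to vary like the other groups. The median average log2 difference of the 8 genes was -0.07 to -0.03. The average of Hmgcs1 changed sign to -0.0012 with all 18 libraries and to -0.025 with replicate 2 left out in place of replicate 1. Leaving out 1 library gave -0.032 to 0.041 for Hmgcs1, negative without soft low replicate 3 (-0.011) or soft high replicate 2 (-0.032), and -0.036 to 0.0064 for Lss, positive without soft mid replicate 1 (0.0032), soft high replicate 2 (0.0048), stiff low replicate 2 (0.0064) or stiff mid replicate 1 (0.0042). The average of Sqle ran from -0.11 to -0.02, of Fdft1 from 0.04 to 0.11, of Idi1 from -0.15 to -0.06 and of Cyp51 from -0.08 to -0.03. Sqle at high AHA was -0.26 (adjusted p = 0.122) with replicate 2 left out in place of replicate 1. The cause was not tested. No paired analysis was possible because the labels give no replicate numbers, and those used here only name libraries. Counting error at the mean counts was largest for Idi1 (10.6%) and Insig1 (8.06%).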
